A study of Sus scrofa with 207 samples.

Results

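Complex I, the NADH:ubiquinone oxidoreductase, is the entry point of the mitochondrial respiratory chain, and most of its nuclear subunits carry gene symbols that start with NDUF. Every probe set whose only symbol starts with NDUF was taken from arrays of pig muscle, and each gene was represented by the probe set with the highest mean. These were 36 genes out of 6765 genes with a symbol of their own, measured by 45 probe sets out of 23935 that are not controls. They held 32 subunits of complex I, 3 assembly factors (NDUFAF1, NDUFAF2 and NDUFAF3) and NDUFA4, which is now known as a subunit of complex IV and was therefore kept apart. A pair of probe sets shared by NDUFAF7 and another gene, 2 in all, was left out. Another 11 NDUF genes of the role lists were not analysed here.

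The arrays were Affymetrix Porcine Genome Arrays, 1 for each of 207 commercial crossbred pigs of a herd labelled Pix(DLxDE). Muscle was sampled when the pigs were slaughtered, weighing 110 kg on average, and the labels give the tissue of the RNA only as muscle, while both traits were measured at the longissimus dorsi. Drip loss, the share of its weight that a hung piece of muscle loses as fluid in the cold, was 5.37 ± 2.22% (SD, n = 207) and ran from 1.45 to 10.82%. Fat area at the longissimus was 15.0 ± 3.15 cm2 (SD, n = 207 less 8 animals without a value) and ran from 8.1 to 26.7 cm2. All animals form a single group with no untreated or control animals, so each comparison below is a slope across animals. Sex, sire, age, slaughter day and hybridisation batch were not taken from the labels. A component of the Y-linked genes EIF1AY and SRY, as a stand-in for sex, entered an alternative fit. No label states how far animals share parents or processing days, so the p-values measure only the spread between these arrays.

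Complex I takes electrons from NADH, hands them along a chain of iron-sulfur clusters to ubiquinone, and uses the energy to pump protons out of the mitochondrial matrix. It is L-shaped. The matrix arm holds the N module, which oxidises NADH, and the Q module, which reduces ubiquinone. The membrane arm holds the proton pumps, with a proximal part next to the Q module and a distal part at the far end. The pumping core is encoded by mitochondrial DNA, and the membrane-arm NDUF genes encode the accessory subunits around it. In skeletal muscle, slow oxidative fibres are rich in mitochondria and fast glycolytic fibres are poor in them.

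The tissue label was checked against muscle markers. The 5 measured general fibre markers, among them CKM (muscle creatine kinase) and TTN (titin), had mean log2 values from 12.7 to 14.1, so the RNA was that of muscle. Markers of both slow fibres (7 measured, means from 12.8 to 13.9) and fast fibres (7 measured, from 13.0 to 14.1) were bright, so both fibre types were represented. The subunits themselves were bright. Of the 32, all except NDUFA5 and NDUFV3 had a mean log2 value of at least 10.0, and NDUFB9 had 12.4. NDUFV3, at 6.21, was close to the median over all probe sets (6.10), as were the assembly factors NDUFAF1 (6.59) and NDUFAF2 (6.21).

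The arrays themselves were uneven. A set of 24 of the 207 resembled the others less than usual, with a median correlation to all other arrays of 0.944 to 0.971, against 0.972 to 0.982 on the rest. Drip loss averaged 4.20 ± 1.55% (SD, n = 24) in the animals of these low-correlation arrays and 5.53 ± 2.25% (SD) in all others. The mean of the standardised subunits was also low there, with a median of -1.0 SD units (-2.45 to 0.94), against 0.15 (-1.25 to 1.55) on the rest. Over all arrays this subunit mean had r = 0.582 (rho = 0.377) with the array's median correlation, r = 0.509 without the 2 arrays farthest from the median, and r = 0.261 without the 24 arrays. It had r = -0.028 (rho = -0.035) with the difference between 3' and 5' control signals, a sign of RNA integrity. Each drip loss call below is given with and without the 24 arrays. Counts under other signs of array quality are given with the share of all probe sets called. With the median array correlation in the fit 3 of 36 NDUF genes rose with drip loss (1.51%). With the difference between 3' and 5' control signals 10 rose (2.33%), and without the 13 arrays that lack spike-in signal 9 rose (4.17%). Over all arrays 14 rose (4.61%). Whole muscle was measured, so a change in the number of cells of a type and in RNA per cell cannot be told apart.

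Muscle of pigs with higher drip loss carried slightly more mRNA of several complex I subunits over all arrays. Of the 36 NDUF genes, 14 rose with drip loss and 0 fell (limma, Benjamini-Hochberg adjustment over all 23935 probe sets). By the same adjustment 3.96% of the 6765 genes, each by its brightest probe set, were called higher and 2.11% lower. Over all probe sets 4.61% were called in either direction and 1.94% were called higher. All 14 were complex I subunits, and the changes were small. Slopes among the 14 ran from 0.032 log2 units per SD of drip loss for NDUFB10 to 0.080 for NDUFA8, which are changes of 2.27% and 5.71% per SD. The median slope of the 32 subunits was 0.044, against 0.0080 over all 6765 genes, and 36 of 36 NDUF genes had a positive slope, against 4127 of 6765 genes. At an unadjusted p under 0.05 there were 29 of 36, against 1614 of 6765 genes. With the adjustment over 1 probe set per gene 17 of 36 rose, where 3.96% of the 6765 genes were called higher and 2.11% lower.

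The count was smaller when the 24 low-correlation arrays were left out or blocks of animals entered the fit. Without those arrays 2 of 36 genes rose (NDUFA2 and NDUFA7), where 0.831% of all probe sets were called, and the median subunit slope was 0.025. With blocks of title numbers in the fit 1 rose (NDUFA2), where 0.623% were called, and the median slope was 0.031. With both changes 0 rose (limma, 0.355% called), and the median slope was 0.016. The sample titles carry running numbers whose meaning the labels do not give, and each of the 10 blocks spans 100 numbers. Within a block, the median r of the subunits with drip loss was positive in 8 of 10 blocks and ran from -0.203 to 0.431.

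**Figure D1:**
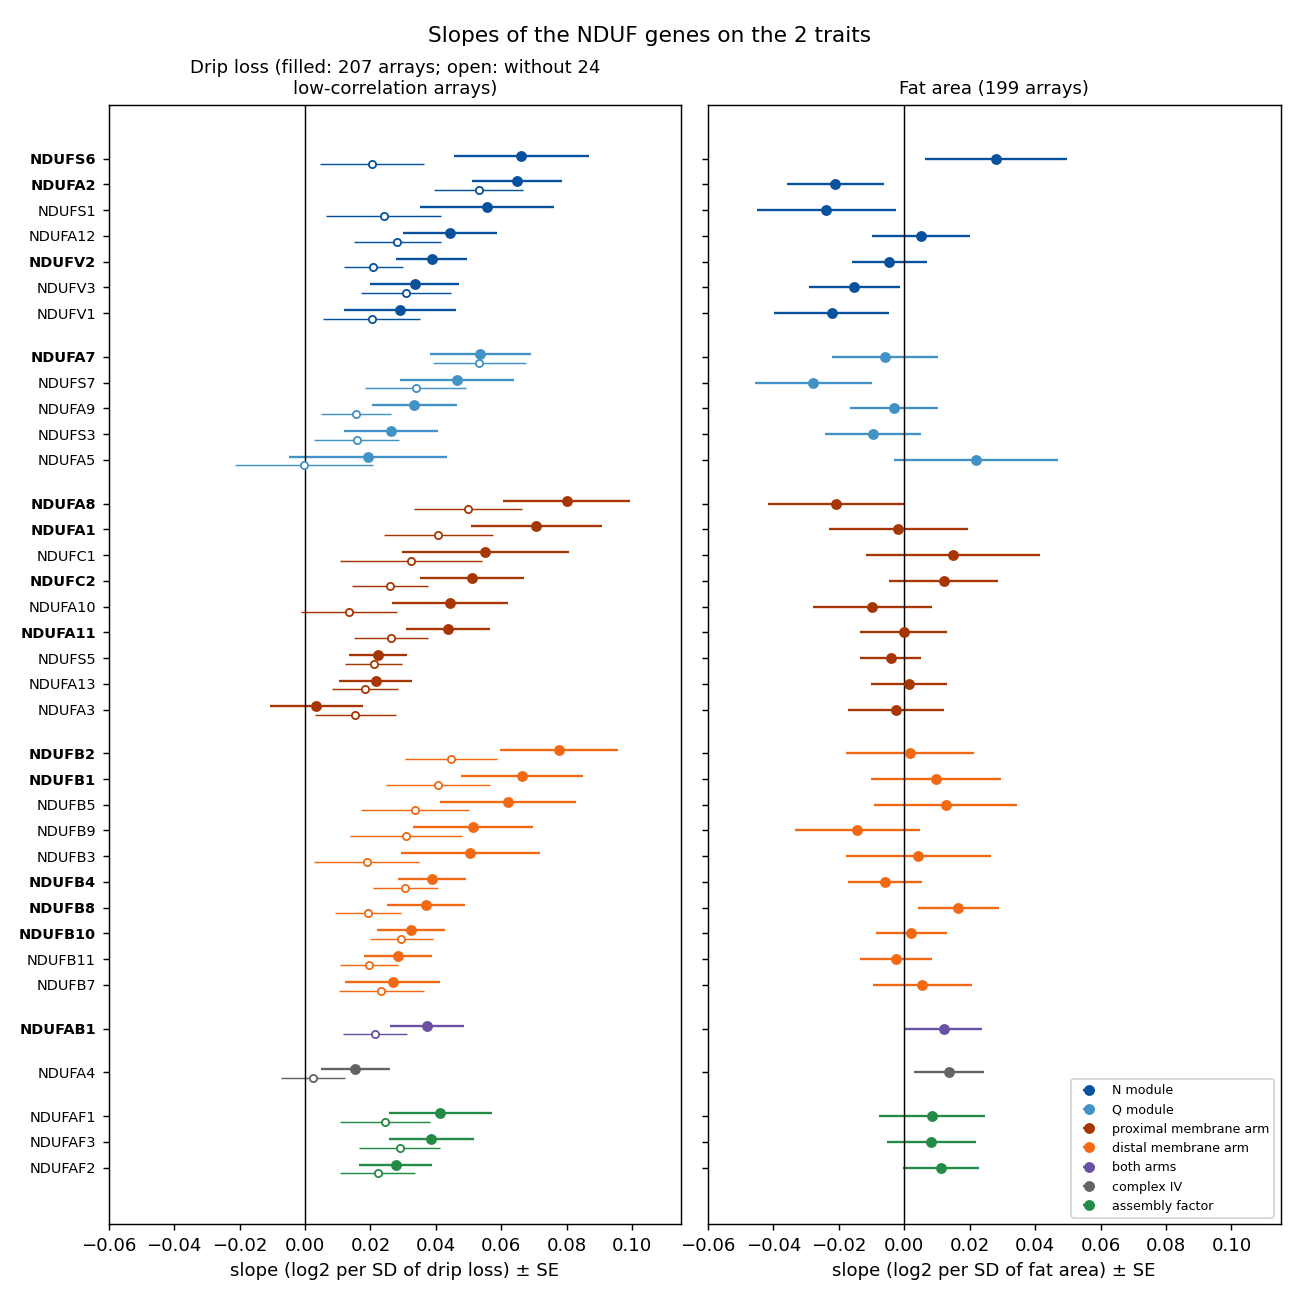
Slopes of the 36 NDUF genes on drip loss (left, log2 units per SD of drip loss) and on fat area (right, log2 units per SD of fat area), by place in the complex, with bars of 1 SE. Filled points use all arrays with the trait, open points leave out the 24 low-correlation arrays, and genes in bold are the 14 that rose with drip loss. All 36 filled drip loss points lie right of 0 and most open points lie nearer to 0, while the fat area points scatter on both sides of 0.

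In the N module 3 of 7 genes rose (median slope 0.044). NDUFA2, an accessory subunit with a thioredoxin-like fold that sits on the largest core subunit, had log2 values of 10.83, 11.25 and 11.90 (lowest, median and highest) in the 69 animals of the upper tertile of drip loss (6.63% or more), against 10.62, 11.16 and 11.52 in the 69 of the lower tertile (4.05% or less). The tertiles overlapped over most of their range, and the shift of the medians was small against the spread. Its slope was 0.065 ± 0.014 (SE, n = 207, limma adjusted p = 0.0021). It was 0.053 ± 0.014 (adjusted p = 0.026) with the low-correlation arrays left out, and 0.054 ± 0.014 (adjusted p = 0.028) with blocks. Each change alone thus kept this call, and it was lost with both made together. NDUFV2, the core subunit that carries an iron-sulfur cluster beside the NADH site, had 11.15, 11.65 and 11.86 in the upper tertile, against 11.01, 11.57 and 11.85 in the lower. The highest values were nearly the same, and the lowest and the median were higher in the upper tertile. Its slope was 0.039 ± 0.011 (adjusted p = 0.022), and 0.021 ± 0.0090 (adjusted p = 0.27) without the low-correlation arrays.

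NDUFS6, a small zinc-binding subunit of the N module, lost most of its slope without the low-correlation arrays. Its values were 9.44, 10.20 and 10.63 in the upper tertile, against 9.07, 10.20 and 10.61 in the lower, so that the medians were equal and only the low ends differed. The slope over all arrays was 0.066 ± 0.021 (adjusted p = 0.041) and 0.021 ± 0.016 (adjusted p = 0.63) with the low-correlation arrays left out. The other members of the module did not pass. NDUFA12, which lies just outside the threshold, had a slope of 0.044 ± 0.014 (adjusted p = 0.0504), close to that of NDUFB8 (0.037 ± 0.012, adjusted p = 0.0466), which lies just inside. NDUFS1, the large core subunit with several iron-sulfur clusters, had 0.056 ± 0.021 (adjusted p = 0.093), and NDUFV1, which binds NADH and the flavin, had 0.029 ± 0.017 (adjusted p = 0.34).

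In the Q module 1 of 5 genes rose (median slope 0.033). NDUFA7, an accessory subunit of this module, had 10.25, 11.06 and 11.46 in the upper tertile, against 10.16, 10.98 and 11.27 in the lower, again with wide overlap. Its slope of 0.054 ± 0.015 (adjusted p = 0.024) was as large without the low-correlation arrays (0.053 ± 0.014, adjusted p = 0.038), but with blocks it was 0.042 ± 0.016 and the call was lost (adjusted p = 0.19). The core subunits were lower in rank. NDUFS7, which holds the last iron-sulfur cluster before ubiquinone, had a slope of 0.046 ± 0.017 (adjusted p = 0.10), and NDUFS3 had 0.026 ± 0.014 (adjusted p = 0.30). NDUFA5 had a slope of 0.019 ± 0.024 and a 95% interval from -0.028 to 0.067.

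In the proximal membrane arm 4 of 9 genes rose (median slope 0.044). NDUFA8, a subunit on the side of the intermembrane space, had 11.20, 11.92 and 12.33 in the upper tertile, against 10.70, 11.77 and 12.12 in the lower. All 3 values were higher in the upper tertile, and the ranges still overlapped. Its slope was the largest of all members, 0.080 ± 0.019 (adjusted p = 0.0076). It was 0.050 ± 0.017 (adjusted p = 0.12) on the arrays that remained when the low-correlation ones were left out. NDUFA1, a small membrane protein needed for assembly of the complex and encoded on the X chromosome, had 11.32, 12.02 and 12.38 in the upper tertile, against 10.96, 11.94 and 12.39 in the lower. Its slope was 0.071 ± 0.020 (adjusted p = 0.022), and 0.041 ± 0.017 (adjusted p = 0.24) without those arrays. NDUFA11 rose by 0.044 ± 0.013 (adjusted p = 0.028) and NDUFC2 by 0.051 ± 0.016 (adjusted p = 0.041). Without the low-correlation arrays their slopes were 0.026 (adjusted p = 0.27) and 0.026 (adjusted p = 0.30).

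NDUFA3, a small subunit of the same part of the membrane arm, had the smallest slope of the 36. Its values were 10.92, 11.35 and 11.99 in the upper tertile of drip loss, against 10.99, 11.36 and 11.87 in the lower, and the medians were nearly equal. The slope was 0.0035 ± 0.014 (adjusted p = 0.93) with a 95% interval from -0.025 to 0.032, which leaves out slopes as large as those fitted for NDUFA2 or NDUFA8. The other proximal subunits NDUFA10, NDUFA13, NDUFC1 and NDUFS5 had slopes from 0.022 to 0.055 that did not pass. NDUFA13, also known as GRIM-19, had 0.022 ± 0.011 (adjusted p = 0.27).

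**Figure D2:**
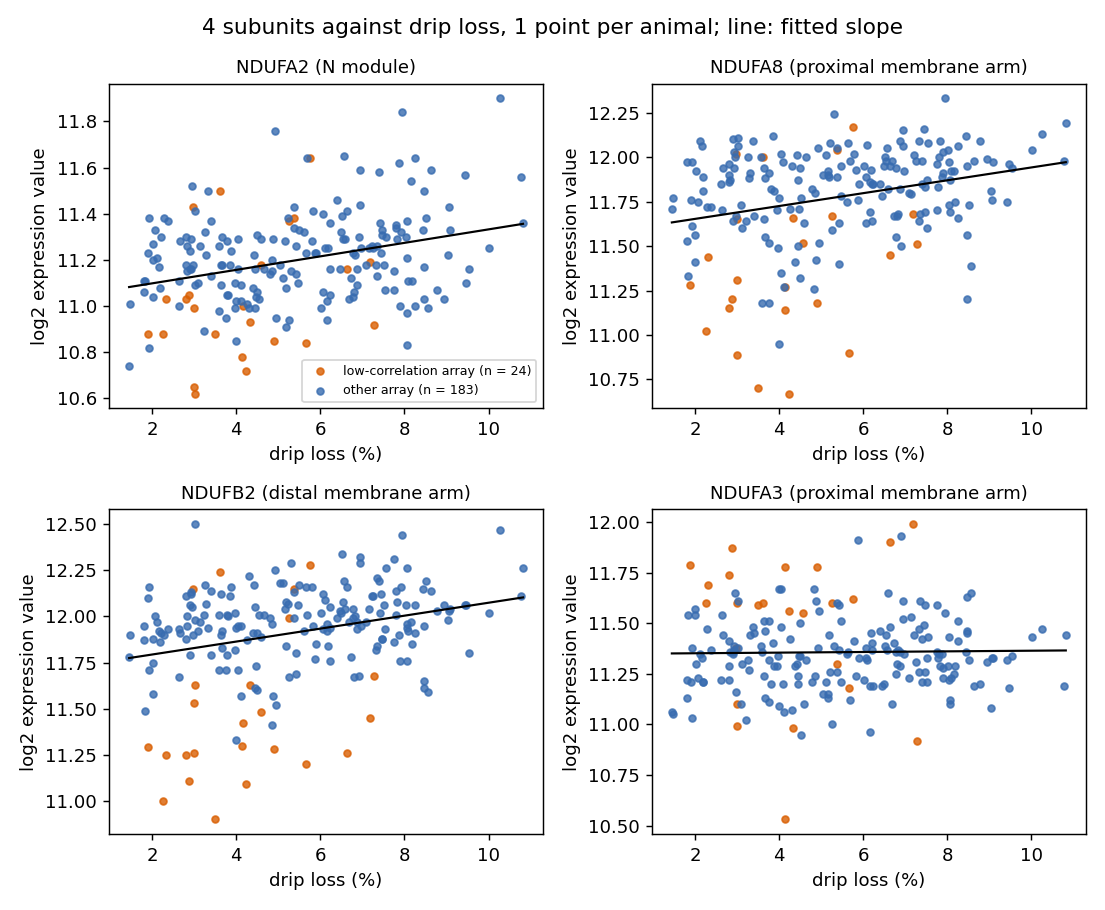
Log2 expression value (vertical axis) of NDUFA2, NDUFA8, NDUFB2 and NDUFA3 against drip loss in percent (horizontal axis), with 1 point per animal, the 24 low-correlation arrays in orange, all others in blue and the fitted slope over all 207 as a line. In NDUFA8 and NDUFB2 the lowest points are mostly orange and mostly lie left of the middle of the drip loss range, in NDUFA2 the upward slope is seen among the blue points as well, and in NDUFA3 the line is nearly flat.

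In the distal membrane arm 5 of 10 genes rose (median slope 0.045). NDUFB2 had 11.26, 12.01 and 12.47 in the upper tertile, against 10.90, 11.92 and 12.50 in the lower. The slope was 0.078 ± 0.018 (adjusted p = 0.0058), and 0.045 ± 0.014 (adjusted p = 0.092) without the low-correlation arrays. NDUFB1 had 11.82, 12.44 and 12.86 in the upper tertile, against 11.22, 12.34 and 12.84 in the lower. The highest values were again nearly the same, and the lowest differed most. Its slope was 0.066 ± 0.019 (adjusted p = 0.021), and 0.041 ± 0.016 (adjusted p = 0.21) without those arrays. NDUFB4 had 11.89, 12.22 and 12.55 in the upper tertile, against 11.71, 12.14 and 12.53 in the lower, with a slope of 0.039 ± 0.010 (adjusted p = 0.016). NDUFB10, 1 of the subunits with a twin pair of cysteines that face the intermembrane space, rose by 0.032 ± 0.010 (adjusted p = 0.046), and NDUFB8 was the fifth. Without the low-correlation arrays the slopes were 0.031 for NDUFB4 (adjusted p = 0.11), 0.029 for NDUFB10 (adjusted p = 0.11) and 0.019 for NDUFB8 (adjusted p = 0.41). NDUFB5 (0.062 ± 0.021, adjusted p = 0.061) had a larger slope than NDUFB4 and NDUFB10 and did not pass. Its SD across animals was 0.307, against 0.152 for NDUFB4 and 0.148 for NDUFB10.

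NDUFAB1, the mitochondrial acyl carrier protein, is held in both arms and also serves fatty acid synthesis in mitochondria. It had 12.05, 12.46 and 12.85 in the upper tertile, against 11.76, 12.38 and 12.74 in the lower, and rose by 0.037 ± 0.011 (adjusted p = 0.033), or 0.021 ± 0.0099 (adjusted p = 0.31) when the low-correlation arrays were left out. The 2 arms were close in their slopes. The median was 0.041 in the matrix arm, where 4 of 12 rose, and 0.044 in the membrane arm, where 9 of 19 rose. Without the low-correlation arrays 2 of 12 matrix-arm genes (median 0.022) and 0 of 19 membrane-arm genes (median 0.026) rose in limma, and with blocks 1 of 12 and 0 of 19. In the lower number series alone (0.823% of all probe sets called) 2 of 12 and 0 of 19 rose. With 5 principal components in the fit (0.054% called) 0 of 12 and 0 of 19 rose. Other settings kept calls in both arms, with 3 of 12 and 8 of 19 with the number series as a covariate (3.79% called). Quantile normalization gave 5 of 12 and 8 of 19 (5.06% called). The difference between arms was not tested, since the members share their arrays.

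Among the assembly factors, which help to build the complex and are not part of it, 0 of 3 passed in limma and 3 of 3 had an unadjusted p under 0.05. NDUFAF3, which acts early on the Q module, had a slope of 0.039 ± 0.013 (adjusted p = 0.059). NDUFAF1 had 0.041 ± 0.016 (adjusted p = 0.11) and NDUFAF2, a relative of NDUFA12, had 0.028 ± 0.011 (adjusted p = 0.14). Their median slope of 0.039 was near that of the subunits. NDUFA4 had a slope of 0.015 ± 0.011 (adjusted p = 0.43) at a log2 mean of 13.1 and a narrow spread (SD 0.148).

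By its brightest probe set, no NDUF gene was called for fat area. The count was 0 of 36 after limma's adjustment, where 0.121% of all probe sets were called, and also 0 of 36 at an unadjusted p under 0.05, against 537 of 6765 genes. The subunit slopes ran from -0.028 to 0.028 log2 units per SD of fat area around a median of -0.0022, and 14 of 32 were positive. NDUFS7 had the smallest p-value. Its median was 11.485 in the 66 animals of the upper tertile of fat area (15.9 cm2 or more), against 11.500 in the 66 of the lower tertile (13.1 cm2 or less), and its slope was -0.028 ± 0.018 (limma adjusted p = 0.79, 95% interval from -0.063 to 0.0076). NDUFS6 had the largest positive slope, 0.028 ± 0.022 (adjusted p = 0.85). NDUFA2, which rose with drip loss, had -0.021 ± 0.015 (adjusted p = 0.82) on fat area, with a 95% interval from -0.050 to 0.0081.

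The difference between the slopes on the 2 traits was tested in 1 fit that held both. NDUFA2 was the single member called, with a drip loss slope minus fat area slope of 0.079 ± 0.019 (SE, n = 207 less 8, limma adjusted p = 0.035), where 0.347% of all probe sets were called. NDUFA8 came next with 0.094 ± 0.027 (adjusted p = 0.078). The difference was positive for 35 of 36 genes, and the exception was NDUFA5 (-0.0005 ± 0.034, adjusted p = 0.997). With blocks in the fit the count was 0 of 36 in limma.

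Across the 207 animals most complex I subunits varied together. Over the 496 pairs of the 32 subunits the median Pearson r was 0.484 (quartiles 0.227 and 0.647), against 0.0059 over all pairs of the 6765 genes, of which the middle 90% lay between -0.275 and 0.354. All pairs share the same arrays and these genes are bright, so the 434 genes with means near those of the subunits or higher were set beside them. Their median r was 0.119. The median was 0.411 without the low-correlation arrays and 0.479 with values centred within blocks. These correlations describe the arrays and carry no p-value.

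The 2 arms rose and fell together from animal to animal. The mean of the standardised matrix-arm subunits had r = 0.887 (rho = 0.849, n = 207) with that of the membrane arm, and r = 0.873 without the low-correlation arrays. The median pairwise r was 0.368 within the matrix arm (66 pairs), 0.518 within the membrane arm and 0.463 between the arms (228 pairs). Pairs across the arms were thus not more loosely tied than pairs inside the matrix arm. The closest pair of all was NDUFA1 with NDUFB2 (r = 0.887, rho = 0.831), from the proximal and the distal membrane arm. The closest pair across the arms was NDUFA13 with NDUFS3 (r = 0.861).

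**Figure D3:**
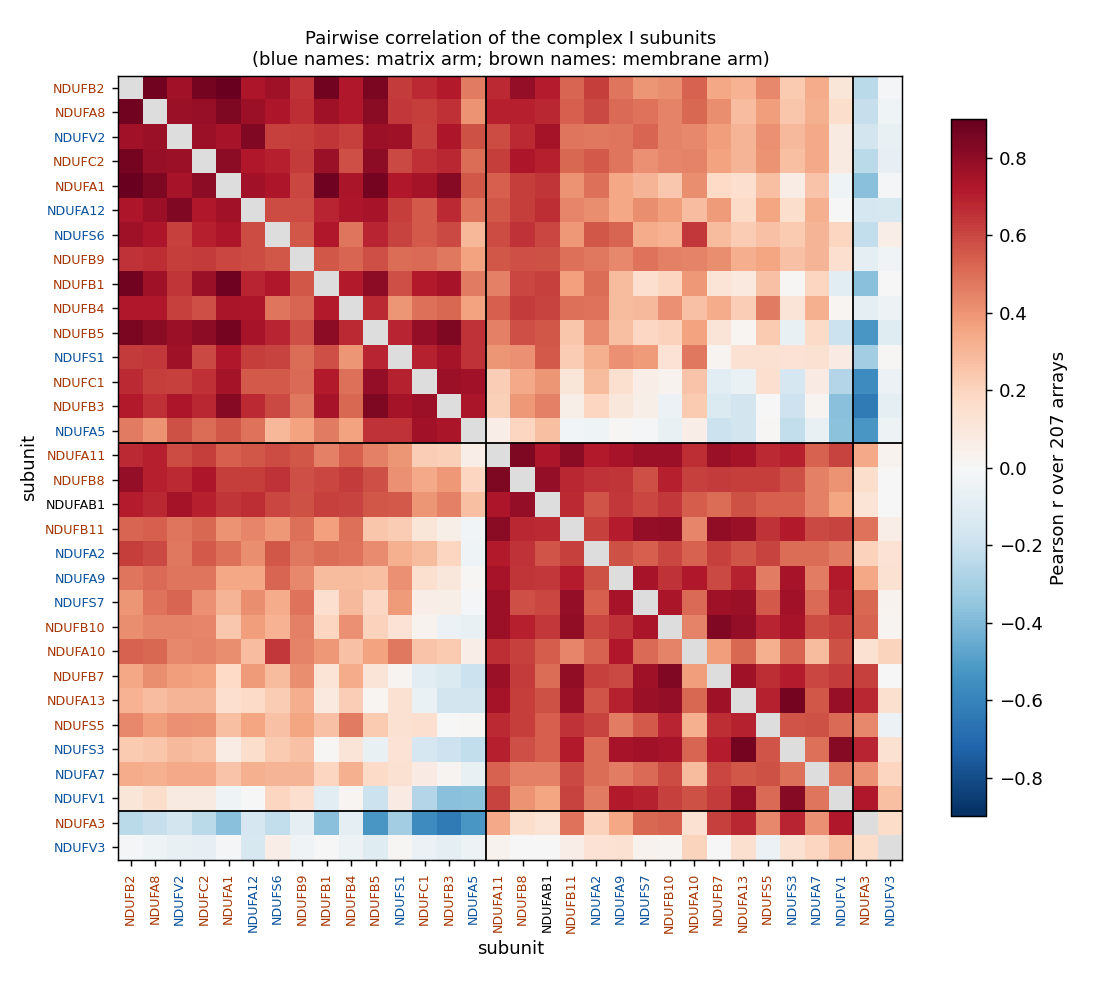
Pearson r over 207 arrays for each pair of the 32 subunits, with subunits on both axes, red for positive and blue for negative r, and names coloured by arm. Lines separate the first co-variation group, the second group, and NDUFA3 and NDUFV3. Names of both colours stand in each of the large red blocks.

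A different split than that of the arms was seen when the subunits were joined by average linkage on 1 minus r and divided into 4 clusters, a number chosen after the values were seen. Each of the 2 large clusters held 15 subunits. The first group held NDUFA1, NDUFA5, NDUFA8, NDUFA12, NDUFB1, NDUFB2, NDUFB3, NDUFB4, NDUFB5, NDUFB9, NDUFC1, NDUFC2, NDUFS1, NDUFS6 and NDUFV2, which are 5 matrix-arm and 10 membrane-arm subunits. The second held NDUFA2, NDUFA7, NDUFA9, NDUFA10, NDUFA11, NDUFA13, NDUFAB1, NDUFB7, NDUFB8, NDUFB10, NDUFB11, NDUFS3, NDUFS5, NDUFS7 and NDUFV1, with 6 from the matrix arm, 8 from the membrane arm and NDUFAB1. The median r was 0.688 within the first group, 0.622 within the second and 0.329 between them, and the 2 group means had r = 0.457 (rho = 0.472). Since the grouping was made from these correlations, the contrast is a description.

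The members of each group mostly stayed together when the values were treated in other ways. With quantile normalization 14 and 15 of the 15 members stayed together, with values centred within blocks 15 and 15, and without the low-correlation arrays 15 and 13. These counts do not show whether the groups stayed in separate clusters. In these settings the median r between the groups was 0.233, 0.328 and 0.270, against 0.584 or more within each group. Removing the first 5 principal components of all probe sets left a median r of 0.423 within the first group, 0.571 within the second and 0.413 between them, so the contrast was then much smaller. The first group's mean had r = -0.802 (rho = -0.669) with the second principal component, which holds 8.07% of the variance, and the second group's mean had r = -0.591 (rho = -0.479) with the first, which holds 9.30%. With the 3' minus 5' control signal the first group's mean had r = -0.186 and the second group's r = 0.137, and the part of RNA integrity in the split was not tested. In the second group 8 of 15 genes lie on chromosome 2 by the RefSeq table, against 0 of 15 in the first group and 632 of 6765 genes in all. Of the first group 8 of 15 rose with drip loss (median slope 0.055), and of the second 6 of 15 (median slope 0.033). Without the low-correlation arrays these counts were 0 of 15 (median 0.031) and 2 of 15 (median 0.021), and with blocks 0 and 1.

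**Figure D4:**
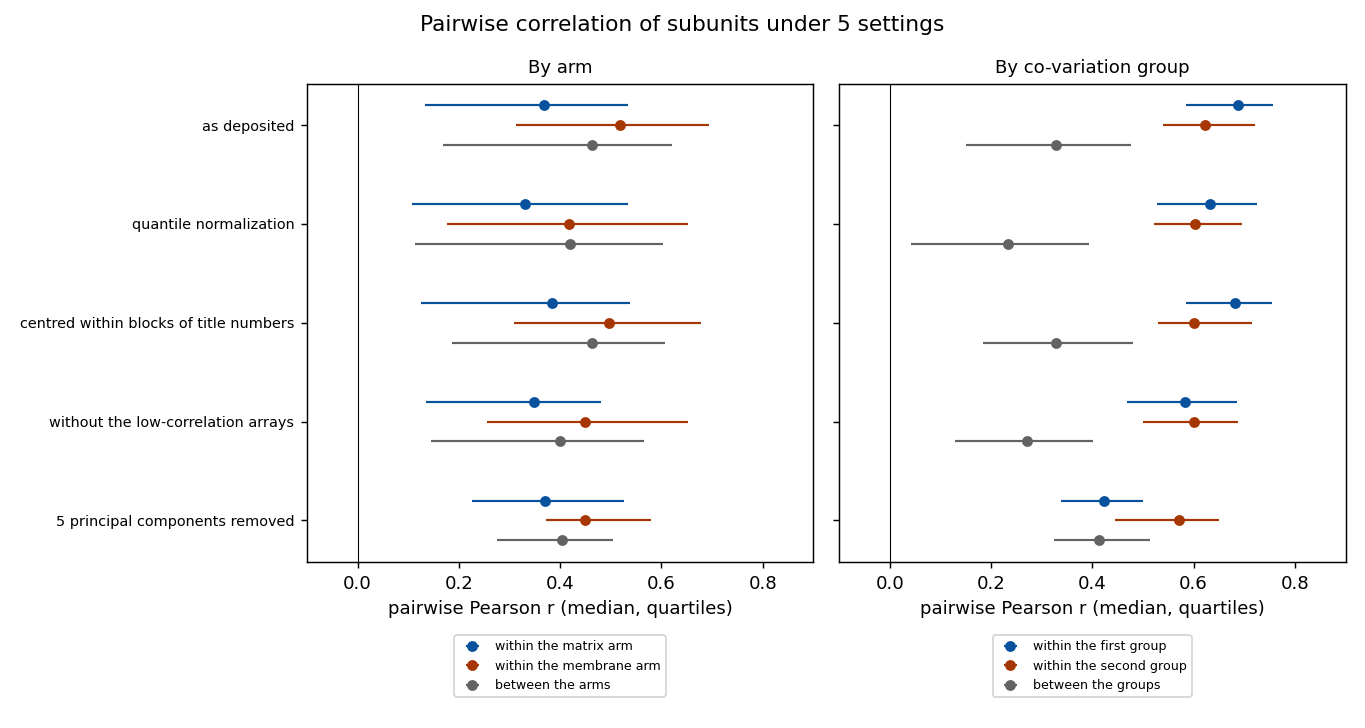
Median pairwise Pearson r with its quartiles (horizontal axis) under 5 settings (vertical axis), by arm on the left and by co-variation group on the right. The arms overlap under every setting drawn, while the pairs between the co-variation groups stand below those within them, except that with 5 principal components removed their median (0.413) is next to that of the first group (0.423).

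NDUFA3 and NDUFV3 joined neither group. Of the 54 pairs with a negative r, 15 involved NDUFA3 and 15 involved NDUFV3. The lowest was NDUFA3 with NDUFB3 (r = -0.636, rho = -0.535), which was -0.598 without the low-correlation arrays, -0.633 with values centred within blocks and -0.659 after quantile normalization. NDUFA3 was as bright as its neighbours in the membrane arm, with log2 values from 10.53 to 11.99 around a mean of 11.4. It had a median r of -0.243 with the first group and 0.433 with the second, and its closest subunit was NDUFV1 (r = 0.723). NDUFV3 was dim, and its mean r with the other subunits was 0.026. NDUFA5, the other subunit with a low mean r (0.199) and 11 negative pairs, went with the first group, and its closest subunit was NDUFC1 (r = 0.755).

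Outside the NDUF genes, the genes most like the mean of the standardised subunits were mostly other parts of oxidative phosphorylation. The 10 highest were ATP5L (r = 0.902), ATP5G1 (0.895), ATPIF1 (0.849), ATP5H (0.849), LOC100524873 (0.836), UQCR10 (0.831), COX7A1 (0.828), ATP5G3 (0.823), C2H19orf70 (0.820) and LOC100524239 (0.817), all over 207 arrays. Of these, ATP5L, ATP5G1, ATP5H and ATP5G3 are subunits of ATP synthase, ATPIF1 is its inhibitor, UQCR10 is a subunit of complex III and COX7A1 is the muscle form of a subunit of complex IV. Over all other genes the median r was 0.021, the middle 90% lay between -0.335 and 0.496, and 4.80% were over 0.5. The 5 lowest were PHKA2 (r = -0.627), PABPC1 (-0.624), PRRC2C (-0.611), ORM1 (-0.589) and ZNF34 (-0.574). PHKA2 encodes a regulatory subunit of phosphorylase kinase, which starts glycogen breakdown, and its slope on drip loss was -0.076 ± 0.018 (limma adjusted p = 0.0058; 0.080 with the low-correlation arrays left out).

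The genes listed for the other complexes were close to the complex I subunits in the measures given here. Of 27 genes of complexes II to V, 10 rose with drip loss and 0 fell, 27 had a positive slope, and the median slope was 0.041. They were 2 of 5 for complex II, 0 of 2 for complex III, 4 of 6 for complex IV and 4 of 14 for ATP synthase. Not all of these are subunits. The complex II list holds the assembly factor SDHAF2 (slope 0.0028 ± 0.011, adjusted p = 0.93). The ATP synthase list holds the inhibitor ATPIF1, which was among those that rose (0.058 ± 0.015, adjusted p = 0.013). ATP5I of ATP synthase rose by 0.10 ± 0.020 (adjusted p = 0.00070) and COX7A2 of complex IV by 0.067 ± 0.017 (adjusted p = 0.0084). SDHD, a membrane anchor of complex II, rose by 0.060 ± 0.017 (adjusted p = 0.028). Without the low-correlation arrays 1 of 27 rose, ATP5I (0.069 ± 0.017, adjusted p = 0.014), and the median slope was 0.021. With blocks it was again ATP5I alone (0.081 ± 0.020, adjusted p = 0.021). The median pairwise r was 0.538 among these 27 genes and 0.479 between them and the complex I subunits, near the 0.484 within complex I. Their mean had r = 0.927 (rho = 0.915) with the subunit mean. For fat area 0 of 27 passed in limma, with 0 at an unadjusted p under 0.05.

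Of 7 further assembly factors of complex I, 1 rose with drip loss and 7 had a positive slope (median 0.040). The gene that rose was ECSIT (0.040 ± 0.013, limma adjusted p = 0.047; 0.28 without the low-correlation arrays), which works with NDUFAF1 in the assembly of the membrane arm. Most regulators of mitochondrial biogenesis did not follow the subunits. Of 5 measured, 0 rose and 1 fell, and 1 of 5 slopes was positive. PPRC1, a coactivator of the PGC-1 family, fell by 0.115 ± 0.027 (adjusted p = 0.0068; 0.076 without the low-correlation arrays), and PPARGC1A, which encodes PGC-1alpha, had -0.267 ± 0.087 (adjusted p = 0.051). The positive slope was that of TFB1M, with 0.034 ± 0.018 (adjusted p = 0.29) and r = 0.339 with the subunit mean. TFAM, which packages mitochondrial DNA and takes part in its transcription, had -0.010 ± 0.022 (adjusted p = 0.85) and r = 0.110.

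Slow fibre markers moved with the subunits from animal to animal, and 0 of the fibre markers passed for drip loss. The mean of the 7 slow fibre markers had r = 0.626 (rho = 0.577, n = 207) with the subunit mean, and r = 0.507 without the low-correlation arrays. That of the 7 fast fibre markers had r = 0.034 (rho = 0.067). Apart from ATP2A1, the fast fibre markers varied little across animals, with SDs from 0.033 (MYL1) to 0.068 (MYLPF) log2 units. ATP2A1 had an SD of 0.219 and r = 0.206 with the subunit mean. Whether the fast marker mean follows fast fibre content was not tested. Slow fibre marker slopes on drip loss ran from -0.0051 to 0.019 (0 of 7 passed in limma, 0 at an unadjusted p under 0.05), and fast ones from -0.011 to 0.0084 (0 of 7 passed, 1 at an unadjusted p under 0.05). Of the 5 general fibre markers 0 passed, with 2 at an unadjusted p under 0.05. The nearest was TCAP, which anchors titin at the Z-disc, with 0.053 ± 0.018 (adjusted p = 0.062) and r = 0.537 with the subunit mean. With the slow and fast marker means in the fit 15 of 36 NDUF genes rose with drip loss over all arrays. In that fit 3.88% of all probe sets were called. The narrow spread of most fast fibre markers limits it as an adjustment for fast fibres. Markers of other cells were also read. For drip loss 0 of 6 adipocyte, 0 of 4 fibroblast, 0 of 4 macrophage and 0 of 5 blood cell markers passed, with 2, 1, 0 and 1 at an unadjusted p under 0.05. Of 7 endothelial markers 1 fell, ENG, by 0.068 ± 0.022 (adjusted p = 0.047; 0.14 with the low-correlation arrays left out). In this list 2 had an unadjusted p under 0.05 and 4 of 7 slopes were positive. The second was CLDN5, which went the other way with 0.071 ± 0.030 (limma adjusted p = 0.16). The adipocyte marker mean had r = 0.023 (rho = 0.024) with the subunit mean, and with it in the fit 14 of 36 NDUF genes rose, where 4.52% of all probe sets were called. Neither fit with markers was run without the low-correlation arrays.

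Of the 36 genes, 7 had more than 1 probe set, with 9 dimmer ones in all, and these did not always follow the brighter one. The 2 probe sets of NDUFB3 had r = 0.929 with each other, and the second one of NDUFS3 had r = 0.911 with the first, so these pairs gave the same picture. The remaining 7 had r from -0.072 to 0.603 with the brighter probe set of their gene, and for NDUFV2 the values were 0.233 and 0.319. For drip loss the lowest adjusted p among the 9 was 0.14, for NDUFB3.

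The dimmer probe set of NDUFS6 fell into separate levels. It had log2 values from 4.46 to 6.75 on 33 arrays and from 7.61 to 9.71 on all others, with no value between them. Above 7.61 the values ran in parallel bands against the brighter probe set, and 42 arrays lay above 9. The brighter probe set did not split. It had a median of 10.02 (9.15 to 10.63) on the 33 arrays and 10.205 (9.07 to 10.75) on the others. Within the others the 2 probe sets had r = 0.696 (rho = 0.715), and within the 33 they had r = 0.549 (rho = 0.454). Drip loss was 5.71 ± 2.25% (SD) in the 33 animals and 5.31 ± 2.21% (SD) in the others. These levels were noticed in the values and were not tested.

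The dimmer probe set of NDUFA1 was the single NDUF probe set called for fat area. Its log2 mean was 6.18, and it fell by 0.193 ± 0.046 per SD of fat area (SE, n = 207 less 8, limma adjusted p = 0.032), while the brighter probe set had -0.0018 ± 0.021 (adjusted p = 0.99). It had r = -0.065 with the brighter one over the 207 arrays. The genes most like it were PSAT1 (r = 0.650, rho = 0.611), GARS (0.587), PSPH (0.501), MARS (0.489) and SARS (0.485), which are 2 enzymes of serine synthesis and 3 aminoacyl-tRNA synthetases. The brighter probe set had r = 0.237 with PSAT1 and -0.378 with GARS. The call was lost with the first component of EIF1AY and SRY in the fit (-0.173 ± 0.048, adjusted p = 0.43). It was also lost without the low-correlation arrays and with blocks (adjusted p = 0.065), without the arrays that lack spike-in signal (adjusted p = 0.065) and for upper against lower tertile (adjusted p = 0.13). The slope was 0.0009 ± 0.105 in the 25 animals of the higher number series that had a fat area.

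**Figure D5:**
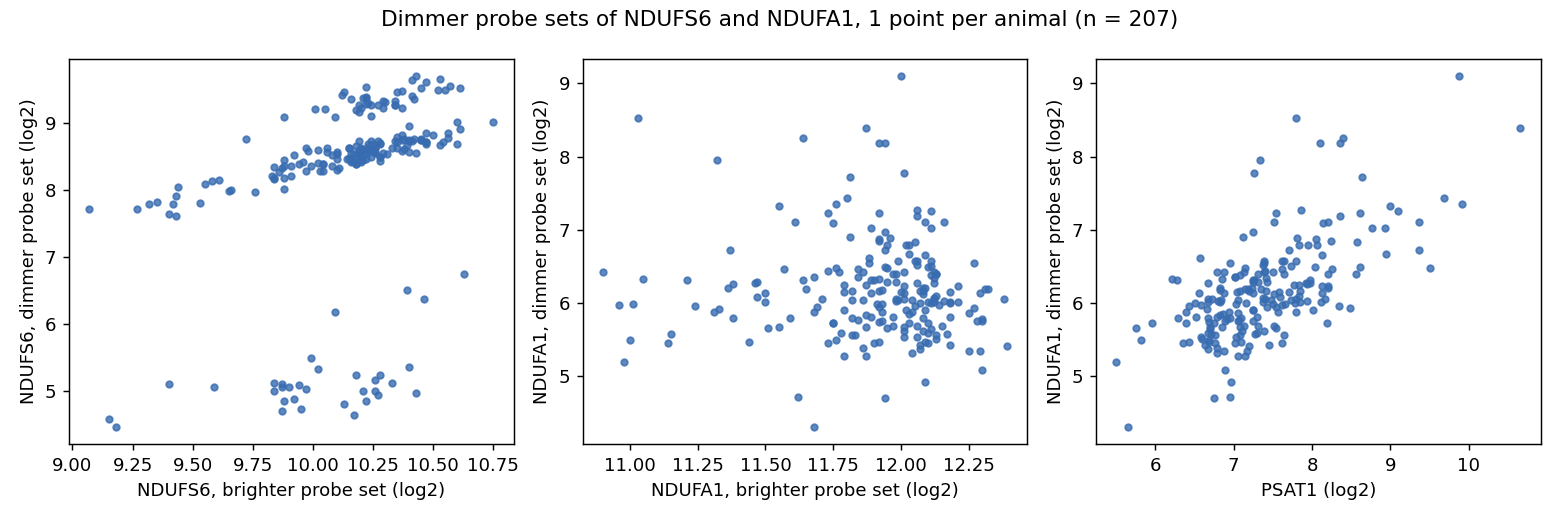
Log2 values of the dimmer probe set (vertical axis) of NDUFS6 against its brighter probe set, of NDUFA1 against its brighter probe set, and of NDUFA1 against PSAT1, with 1 point per animal (n = 207). The NDUFS6 points form parallel bands above 7.61 and a separate cloud up to 6.75, the dimmer NDUFA1 probe set shows no trend with the brighter one, and it rises with PSAT1.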

How the data were processed

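Muscle RNA of 207 pigs was hybridised to 1 array each. The deposited log2 values were made by the authors with GCOS 1.1.1 and PLIER, per the submitters' processing notes; any scaling between arrays is not given in the sources used here. Values have a floor at 4, which holds 1.43% of them, and array medians ran from 5.96 to 6.18. They were used as deposited. Of 24123 probe sets, 188 controls were left out. Symbols came from the array annotation, and 36 of 36 members matched the RefSeq table (Sscrofa11.1), used for chromosomes only. Each probe set was regressed on the trait in SD units with limma 3.58.1 in R 4.3.3 (lmFit, eBayes), two-sided, Benjamini-Hochberg over 23935 probe sets, threshold 0.05. Low-correlation arrays lay over 3 scaled MADs below the median. The number of arrays limits the precision. Tested on simulated data for drip loss with 50 probe sets changed at each size among 23935, the fit recovered 24% at 0.05 log2 per SD and 92% at 0.1, with 12 false calls; for fat area it recovered 28% and 90%, with 8 false calls. Members, lists and tests were chosen with earlier results of these data known. Every NDUF gene could be named. Other genes were named by the smallest p-values of their list or by the highest and lowest r, and CKM, TTN and TFAM were named beside these.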

Additional observations from a re-analysis of the deposited data

How the results depend on the processing

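The 14 increases with drip loss depended on the arrays and covariates used. Each count is given with the share of all probe sets called, which was 4.61% for the 14. It was 1 with blocks of title numbers (0.623%), 2 without the low-correlation arrays (0.831%) and 0 with both (0.355%). It was 3 with the median array correlation as a covariate (1.51%) and 0 with 5 principal components (0.054%). The lower number series alone gave 2 (0.823%), and the higher (n = 33) gave 0, where 0 of 23935 probe sets were called. Normal scores of the trait gave 9 (4.53%), and leaving out the 13 arrays that lack spike-in signal gave 9 (4.17%). The EIF1AY and SRY component gave 8 (2.98%), and upper against lower tertile gave 0 (0.497%). The cause was not tested, except that tertiles, single series and fits without some arrays use fewer animals. Under the other 11 alternatives the count was 10 to 17, where 2.33% to 10.6% of all that was tested were called. NDUFA2 was called in 18 of 22 alternatives, NDUFA7 in 16, NDUFA8 and NDUFB2 in 15. Over single genes and alternatives, 44.2% of the drip loss calls were lost and 17 were gained, and 0 slopes of called genes changed sign. The fat area count was 0 under 22 of 22. The difference between traits was 1, and 0 with blocks or with blocks and without the low-correlation arrays. The median pairwise r ran from 0.411 to 0.479 under alternatives that changed it. No paired analysis was possible because all animals form 1 group with no shared replicate numbers. On simulated data slopes of 0.05 were mostly missed. The simulation changed probe sets drawn at random from the whole array, with independent noise, so it does not give the recovery for these members. Smaller slopes were called here in members with a narrow spread, such as NDUFB10 (0.032, SD 0.148).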
